A study of Mus musculus with 18 samples.

Results

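The unfolded protein response and the integrated stress response were followed through 35 genes in isolated mouse heart cells. The 35 were named as ER chaperone, ER degradation and ATF4 target genes together with the sensors and factors above them, and all 35 were found among the 19094 protein-coding genes of the deposited tables. They fell into 6 sensors and transcription factors, 13 chaperones and foldases of the endoplasmic reticulum (ER), 4 genes of ER degradation, 7 ATF4 and CHOP targets and stress signals, and 5 enzymes of amino acid and one-carbon metabolism. The groups follow role, so the enzymes, which serve the amino acid supply that ATF4 switches on, stand apart from the other ATF4 targets.

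The series compared Bag3-P209L Tg+ mice with Bag3-WT mice, 3 of each and all 16 months old, in cardiomyocytes and in cardiac fibroblasts taken from each heart. BAG3 is a co-chaperone of HSP70 that routes damaged proteins to autophagy in muscle, and P209L is a proline to leucine exchange linked to myofibrillar myopathy. Each mouse gave 2 cardiomyocyte samples (rep1 and rep2, summed here) and 1 fibroblast sample, 18 in all, which left 12 columns, 1 per mouse and cell type. Each of the 18 is called a library here. Whether rep1 and rep2 were separate libraries or 2 rounds of sequencing of 1 library is not stated in the labels. Which promoter drives the transgene, and from which species it comes, is not stated in the labels. The letter F stands in the codes of Tg1, Tg3 and WT1 and the letter M in those of Tg2, WT2 and WT3, so that this letter was unevenly spread over the genotypes.

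In the unfolded protein response, misfolded proteins in the ER lumen activate 3 sensors in the ER membrane. IRE1 (Ern1) splices the message of Xbp1, ATF6 is cut to release a transcription factor, and PERK (Eif2ak3) phosphorylates the initiation factor eIF2. Phosphorylated eIF2, which other kinases also make under amino acid shortage, viral infection or haem shortage, slows most translation but favours that of ATF4, and ATF4 with CHOP (Ddit3) switches on genes for amino acid supply, redox balance and feedback. Secretory cells such as fibroblasts are known to rely on ER folding capacity, and cardiomyocytes use a related membrane system to store calcium.

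Many ER chaperone promoters are known to carry an element through which ATF6 and XBP1 act, and several ATF4 targets a composite C/EBP-ATF site. Promoter sequences from RefSeq (build GRCm38.p6, 250 bases before to 50 after the start of a gene) were available for 33 of the 35 genes, all but Atf6 and Manf. The search covered 4 motifs on both strands. The ER stress response element was written as CCAAT, 9 bases of any kind and CCACG, its second form as ATTGG, 1 base and CCACG, the XBP1-type core as TGACGTGG, and the C/EBP-ATF type as TGATG, 1 base and AA. The first 3 share the letters CCACG or their reverse complement and can overlap. None of the matches found in the 33 promoters overlapped another.

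The first form was found in the promoters of 8 of the 33 genes, Hspa5, Hsp90b1, Dnajc3, Pdia6, Calr, Canx, Creld2 and Syvn1, and in 37 of all 27025 genes with a promoter (0.137%). The matches are shown so that the fixed and free bases can be compared, with the fixed letters in capitals, each read 5′ to 3′ on the strand that holds the motif (GRCm38.p6).
Hspa5, chr2:34772025-34772043, plus strand: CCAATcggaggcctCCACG
Hsp90b1, chr10:86705638-86705656, minus strand: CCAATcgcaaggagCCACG
Hsp90b1, chr10:86705533-86705551, plus strand: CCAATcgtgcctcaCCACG
Dnajc3, chr14:118937827-118937845, plus strand: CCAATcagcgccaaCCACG
Pdia6, chr12:17266491-17266509, plus strand: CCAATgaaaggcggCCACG
Calr, chr8:84847075-84847093, plus strand: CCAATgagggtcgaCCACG
Canx, chr11:50325800-50325818, minus strand: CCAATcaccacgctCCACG
Creld2, chr15:88819520-88819538, minus strand: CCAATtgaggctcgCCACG
Syvn1, chr19:6046532-6046550, plus strand: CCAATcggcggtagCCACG
Hsp90b1 was the only one of the 8 with a pair of such matches. The second form was found in the promoters of Dnajb11 and Herpud1 and in 12 of the 27025 genes (0.0444%).
Dnajb11, chr16:22857852-22857862, plus strand: ATTGGcCCACG
Herpud1, chr8:94386377-94386387, plus strand: ATTGGgCCACG
The XBP1-type core was in none of the 33 promoters and in 193 of the 27025 genes (0.714%). The C/EBP-ATF type motif was in 5 of the 33, Herpud1, Trib3, Chac1, Nupr1 and Asns, and in 1219 of the 27025 genes (4.51%). A match is a description of these letters in this window and not a measured binding site.

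Whole promoters are shown for a pair of chaperone genes and a pair of genes with the C/EBP-ATF motif, because these genes recur below. Capitals mark every motif match, read 5′ to 3′ on the strand of the gene.
Hspa5 promoter, chr2:34771840-34772139, plus strand: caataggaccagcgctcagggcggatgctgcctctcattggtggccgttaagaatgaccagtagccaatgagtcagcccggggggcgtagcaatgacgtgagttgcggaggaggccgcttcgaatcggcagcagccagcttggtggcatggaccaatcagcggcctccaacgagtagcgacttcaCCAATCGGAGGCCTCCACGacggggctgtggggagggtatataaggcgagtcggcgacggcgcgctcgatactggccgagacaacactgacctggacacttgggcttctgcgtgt
Hsp90b1 promoter, chr10:86705395-86705694, minus strand: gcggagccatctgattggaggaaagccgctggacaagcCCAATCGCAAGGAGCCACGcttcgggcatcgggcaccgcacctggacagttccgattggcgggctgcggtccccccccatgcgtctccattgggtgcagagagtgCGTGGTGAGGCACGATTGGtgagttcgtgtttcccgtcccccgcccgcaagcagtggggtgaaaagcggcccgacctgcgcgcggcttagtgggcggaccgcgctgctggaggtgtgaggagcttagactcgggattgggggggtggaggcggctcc
Herpud1 promoter, chr8:94386179-94386478, plus strand: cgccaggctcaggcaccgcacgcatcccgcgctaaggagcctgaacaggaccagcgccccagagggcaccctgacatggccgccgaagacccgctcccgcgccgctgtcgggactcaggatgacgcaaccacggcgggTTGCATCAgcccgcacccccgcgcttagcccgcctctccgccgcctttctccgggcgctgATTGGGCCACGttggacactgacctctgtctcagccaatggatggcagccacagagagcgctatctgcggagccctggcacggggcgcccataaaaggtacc
Chac1 promoter, chr2:119350992-119351291, plus strand: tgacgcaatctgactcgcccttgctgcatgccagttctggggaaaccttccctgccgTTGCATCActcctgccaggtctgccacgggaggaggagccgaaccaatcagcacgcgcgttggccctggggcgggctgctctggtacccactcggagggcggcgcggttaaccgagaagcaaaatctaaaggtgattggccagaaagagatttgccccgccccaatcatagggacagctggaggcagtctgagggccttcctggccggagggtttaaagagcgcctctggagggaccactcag
Herpud1 holds both a match of the second ER stress form and one of the C/EBP-ATF type, while Chac1 holds the C/EBP-ATF type alone.

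Cardiomyocyte columns held 10861379 to 17171514 estimated counts, of which 2261639 to 7793081 were nuclear, and fibroblast columns 17265102 to 61291930, of which 11309891 to 15811084 were nuclear. Mitochondrial genes took 51.7 to 85.5% of cardiomyocyte counts and 16.7 to 74.2% of fibroblast counts, the highest fibroblast share being that of WT1, so all levels below are CPM, counts scaled to the nuclear total, with TMM factors over the 12 columns, while genotype fold changes come from fits within each cell type. The cardiomyocyte column of Tg3 stood apart, with a median correlation of 0.780 with the other cardiomyocyte columns, where the other 5 had medians of 0.866 to 0.910, and it lay closest to WT3. The fibroblast column of Tg3 had a median correlation of 0.933, against 0.951 to 0.975 in the other 5. All 13 cardiomyocyte markers were higher in cardiomyocytes, where they summed to 2990 to 7625 CPM, against 1225 to 3085 CPM in fibroblasts. The 13 fibroblast markers did not separate the cell types, since 2 were higher and 1 lower in cardiomyocytes, and they summed to 9624 to 24589 CPM in cardiomyocytes and 5199 to 19399 CPM in fibroblasts. In every cardiomyocyte column the fibroblast markers summed above the cardiomyocyte markers. Sums of different lists do not give shares of cells. Below, cardiomyocytes and fibroblasts name the isolated samples as labelled. In bulk columns, fewer cells of a type and less RNA per cell cannot be told apart.

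The clearest difference in the stress genes lay between the cell types. In cardiomyocytes against fibroblasts of the same mice, 19 of the 35 genes were lower and none was higher (edgeR's quasi-likelihood test with the mouse as a block, adjusted p under 0.05 over 13284 genes). Among all genes tested, 24.7% were lower, 20.4% were higher and 45.1% were called in either direction. The median log2 fold change, cardiomyocyte over fibroblast, was −0.80 over the 35 genes and −0.02 over all genes. The 7 ATF4 and CHOP targets and stress signals were all lower, with a median of −2.50, as were 5 of the 6 sensors and factors (median −1.48) and 3 of the 5 enzymes (median −0.96). Of the ER chaperones and foldases 3 of 13 were lower (median −0.21), and of the ER degradation genes 1 of 4 (median −0.48).

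Within mice, 20 of the genes were lower in the cardiomyocytes of all 6, none was higher in all 6, and 15 were mixed. This count was not made over all genes. By the fitted log2 fold change, 26 of the 35 genes and 6735 of the 13284 tested were below 0. For 14 genes, Atf4, Atf6, Ddit3, Ern1, Hspa5, Dnajb9, Herpud1, Trib3, Chac1, Gdf15, Sesn2, Ppp1r15a, Nupr1 and Mthfd2, every cardiomyocyte column was below every fibroblast column, and for none was every one above, where 15.4% and 10.3% of all genes tested were so separated.

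**Figure D1:**
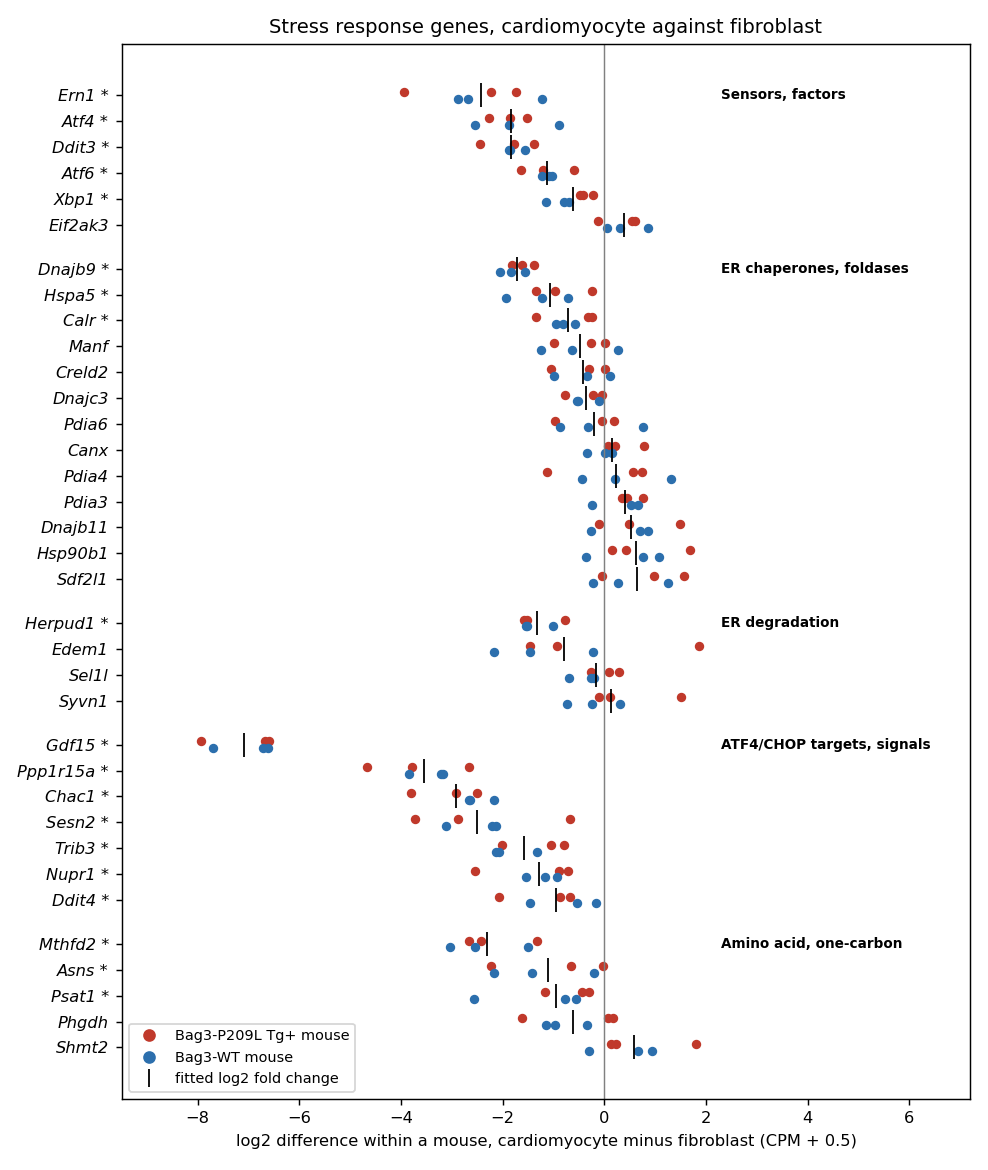
Difference within each mouse, cardiomyocyte minus fibroblast, in log2 (CPM + 0.5), for the 35 genes in their 5 role groups. Each point is 1 mouse (red Bag3-P209L Tg+, blue Bag3-WT), the black bar is the fitted log2 fold change and an asterisk marks an adjusted p under 0.05. The 7 genes grouped as ATF4 and CHOP targets and stress signals lie left of 0 in all 6 mice. Of the 5 enzymes, Asns, Psat1 and Mthfd2 do so too, while Phgdh and Shmt2 lie on both sides of 0. Most ER chaperones also lie on both sides of 0.

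Several marker lists moved with this contrast. The 13 macrophage and myeloid markers were all lower in cardiomyocytes, where they summed to 1228 to 4298 CPM, against 5991 to 20568 CPM in fibroblasts. In the fibroblast columns of WT1 and WT3 these sums, 20568 and 17237 CPM, were above those of the fibroblast markers, 5199 and 12037 CPM. In the other fibroblast columns they were below. All 8 inflammatory cytokine genes were lower, with sums of 26.9 to 82.6 CPM in cardiomyocytes and 5848 to 12193 CPM in fibroblasts. Of the 8 immediate early genes 7 were lower, with sums of 2006 to 4315 CPM in cardiomyocytes and 7703 to 12434 CPM in fibroblasts. The 5 erythroid genes were all lower, with sums of 71.7 to 7822 CPM in cardiomyocytes and 163 to 14793 CPM in fibroblasts. In the other direction, the 8 smooth muscle and pericyte markers were all higher, with sums of 880.2 to 4757 CPM in cardiomyocytes and 328 to 1881 CPM in fibroblasts. Of the 5 mesothelial markers 4 were higher and 1 lower, with sums of 34.95 to 941 CPM in cardiomyocytes and 94.0 to 256 CPM in fibroblasts, and of the 10 endothelial markers 2 were lower. None of the markers of these lists was at 0 in every column of either cell type, and their part in the stress gene differences was not tested. The cells of each type were isolated and sequenced as separate samples, and the labels give a further round of sequencing for cardiomyocytes alone, so cell type and preparation cannot be told apart.

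Scaling sets how many genes lie on each side. With library size alone and no TMM factor, the median of all genes moved to 0.38, and 4586 genes were higher (34.5%) and 2153 lower (16.2%) in cardiomyocytes, in place of 2705 and 3285. Of the 35 genes 7 were then higher and 14 lower. The 7 were Eif2ak3, Hsp90b1, Dnajb11, Pdia3, Canx, Sdf2l1 and Shmt2, and the median of the 35 genes was −0.38, below that of all genes by this scaling too. Of the 19 genes, 13 were called lower under all 17 alternatives that kept both genotypes: Atf4, Atf6, Ddit3, Ern1, Hspa5, Dnajb9, Herpud1, Trib3, Chac1, Gdf15, Sesn2, Ppp1r15a and Nupr1.

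Gdf15, which encodes a secreted cytokine released by stressed cells, differed most of all 35. It had 4.50, 8.20 and 0.736 CPM in Tg+ cardiomyocytes and 7.51, 6.73 and 3.56 CPM in WT cardiomyocytes, against 508, 845 and 304 CPM in Tg+ fibroblasts and 785, 763 and 842 CPM in WT fibroblasts. No cardiomyocyte column came near any fibroblast column, and the lowest, Tg3, rested on 2 counts. The log2 fold change was −7.09 ± 0.31 (SE, 6 mice), a level 136 times lower in cardiomyocytes (edgeR adjusted p = 4.32e-07). Per kb of merged exon, Gdf15 was the highest of the 35 genes in fibroblasts, at 364 CPM per kb, next to Hspa5 at 361, and was 34th in cardiomyocytes at 2.81 CPM per kb.

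Ppp1r15a and Chac1 followed in size of the difference. Ppp1r15a, whose product GADD34 brings a phosphatase to eIF2, had 81.2, 113 and 28.3 CPM in Tg+ cardiomyocytes and 86.1, 69.1 and 46.5 CPM in WT cardiomyocytes, against 1122, 724 and 729 CPM in Tg+ fibroblasts and 785, 650.1 and 673 CPM in WT fibroblasts. Its log2 fold change was −3.56 ± 0.28 (SE, edgeR adjusted p = 5.28e-06). The lowest fibroblast level was more than 5 times the highest cardiomyocyte level. Chac1, which encodes an enzyme that breaks down glutathione, had 1.57, 6.05 and 5.89 CPM in Tg+ cardiomyocytes and 3.56, 6.73 and 7.41 CPM in WT cardiomyocytes, against 28.4, 49.0 and 35.8 CPM in Tg+ fibroblasts and 24.8, 45.6 and 34.99 CPM in WT fibroblasts. All 6 cardiomyocyte columns, at 9 to 31 counts each, were below the lowest fibroblast column, and the log2 fold change was −2.92 ± 0.28 (SE, edgeR adjusted p = 1.85e-05).

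Sesn2, which encodes a leucine sensor that restrains mTORC1, had 9.52, 27.3 and 82.0 CPM in Tg+ cardiomyocytes and 18.2, 20.2 and 33.5 CPM in WT cardiomyocytes, against 132, 206 and 132 CPM in Tg+ fibroblasts and 86.2, 179.8 and 149 CPM in WT fibroblasts. Tg3 was the highest cardiomyocyte column and still lay below the lowest fibroblast column, WT1. The log2 fold change of Sesn2 was −2.50 ± 0.36 (SE, edgeR adjusted p = 0.000304). Trib3, a pseudokinase that CHOP induces and that dampens ATF4, ranged from 10.7 to 22.9 CPM (median 17.5) over the 6 cardiomyocyte columns, against 27.5 to 82.3 CPM (median 49.6) over the 6 fibroblast columns, with a log2 fold change of −1.59 ± 0.24 (adjusted p = 0.000391). Nupr1, a small stress-induced chromatin protein, ranged from 5.52 to 24.6 CPM (median 19.8) over the 6 cardiomyocyte columns, against 31.5 to 47.5 CPM (median 39.7) over the 6 fibroblast columns, with a log2 fold change of −1.28 ± 0.26 (adjusted p = 0.00230). The groups did not overlap for either gene.

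Ddit4, which encodes REDD1, another inhibitor of mTORC1, was the member of the group in which the cell types overlapped. It had 391, 150.0 and 472 CPM in Tg+ cardiomyocytes and 187, 227 and 327 CPM in WT cardiomyocytes, against 630.0, 637 and 865 CPM in Tg+ fibroblasts and 209.04, 624.7 and 478 CPM in WT fibroblasts. The overlap came from the fibroblast column of WT1, which at 209.04 CPM was below 4 of the 6 cardiomyocyte columns. The log2 fold change was −0.96 ± 0.26 (SE, edgeR adjusted p = 0.0114), and it was not called by library size alone (−0.57, adjusted p = 0.0692).

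**Figure D2:**
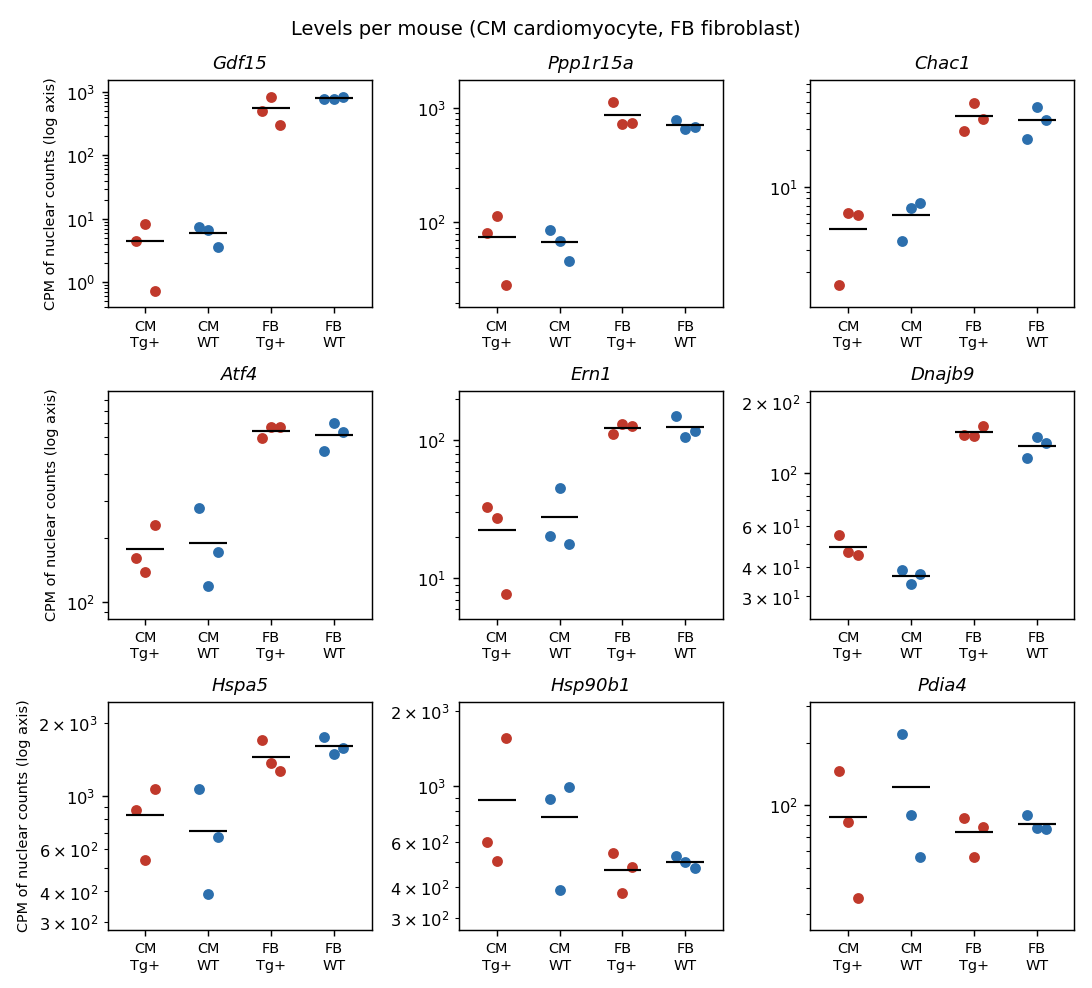
CPM of nuclear counts per mouse on a log axis for 9 of the genes, in cardiomyocytes (CM) and fibroblasts (FB) of Bag3-P209L Tg+ (red) and Bag3-WT (blue) mice, with a horizontal line at the mean of 3 mice. Gdf15, Ppp1r15a, Chac1, Atf4, Ern1, Dnajb9 and Hspa5 are lower in every cardiomyocyte column, while Hsp90b1 and Pdia4 overlap between the cell types.

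Among the factors, Atf4 itself had 162, 138 and 232 CPM in Tg+ cardiomyocytes and 278, 119 and 173 CPM in WT cardiomyocytes, against 591, 666 and 671 CPM in Tg+ fibroblasts and 516, 698 and 634 CPM in WT fibroblasts. The 6 cardiomyocyte columns lay below the 6 fibroblast columns, with a log2 fold change of −1.83 ± 0.24 (SE, edgeR adjusted p = 0.000161). ATF4 is controlled largely at translation, which these counts do not measure. Ddit3, which encodes CHOP, ranged from 12.5 to 26.3 CPM (median 18.0) over the 6 cardiomyocyte columns, against 52.3 to 72.0 CPM (median 69.3) over the 6 fibroblast columns, with a log2 fold change of −1.83 ± 0.19 (adjusted p = 3.64e-05). Its groups did not overlap.

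Of the 3 ER sensors, 2 were lower in cardiomyocytes. Ern1 had 32.9, 27.1 and 7.73 CPM in Tg+ cardiomyocytes and 20.1, 45.3 and 17.8 CPM in WT cardiomyocytes, against 111, 130.2 and 126 CPM in Tg+ fibroblasts and 151, 106 and 117 CPM in WT fibroblasts. Its log2 fold change was −2.42 ± 0.32 (SE, edgeR adjusted p = 0.000172), and WT2 had the highest and Tg3 the lowest cardiomyocyte level. Atf6 ranged from 48.0 to 69.5 CPM (median 59.5) over the 6 cardiomyocyte columns, against 104 to 152 CPM (median 129.9) over the 6 fibroblast columns, with a log2 fold change of −1.14 ± 0.18 (adjusted p = 0.000535). Eif2ak3, the gene of PERK, was not called. It ranged from 30.7 to 38.6 CPM (median 33.3) over the 6 cardiomyocyte columns, against 20.5 to 34.5 CPM (median 25.2) over the 6 fibroblast columns, so the cell types overlapped, and its log2 fold change was 0.38 ± 0.20 (adjusted p = 0.140). Xbp1 ranged from 114 to 203 CPM (median 149) over the 6 cardiomyocyte columns, against 199.6 to 257 CPM (median 236) over the 6 fibroblast columns, with a log2 fold change of −0.63 ± 0.18 (adjusted p = 0.0164). The call of Xbp1 was lost without WT2 (−0.52, adjusted p = 0.0615) and without WT3 (−0.60, adjusted p = 0.0565), as it was by library size alone (−0.23, adjusted p = 0.302) and in the deposited normalized table (−0.50, adjusted p = 0.0738). Gene counts do not separate the spliced message of Xbp1.

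The 3 highest of the 35 genes in cardiomyocytes were ER chaperone and foldase genes. Per kb of merged exon, the mean over 6 mice was 204 CPM per kb for Hsp90b1, 198 for Pdia3 and 182 for Hspa5, with coefficients of variation of 51.7%, 21.5% and 36.6%. Ddit4, of the group of ATF4 and CHOP targets and stress signals, was next at 167 CPM per kb (43.0%). These neighbours did not differ beyond their spread. Summed over the 13 genes, the group had 3969 ± 912 CPM in Tg+ cardiomyocytes and 3650 ± 1139 CPM in WT cardiomyocytes, against 4170 ± 428 CPM in Tg+ fibroblasts and 4507 ± 253 CPM in WT fibroblasts (SD, n = 3 each). The 7 ATF4 and CHOP targets and stress signals summed to 498 ± 136 CPM in Tg+ cardiomyocytes and 381 ± 64.7 CPM in WT cardiomyocytes, against 2408 ± 234 CPM in Tg+ fibroblasts and 2202 ± 220 CPM in WT fibroblasts. The chaperone sums of the cell types overlapped, as did those of the 5 enzymes. Those of the ATF4 and CHOP targets and stress signals did not.

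The chaperone genes lower in cardiomyocytes were Hspa5, Dnajb9 and Calr. Hspa5, the gene of BiP, which holds the 3 sensors inactive until unfolded proteins draw it away, had 871, 543 and 1071 CPM in Tg+ cardiomyocytes and 1071, 389 and 677 CPM in WT cardiomyocytes, against 1702, 1372 and 1264 CPM in Tg+ fibroblasts and 1752, 1496 and 1580.3 CPM in WT fibroblasts. Tg3 and WT1 shared the highest cardiomyocyte level to 4 digits, and the groups did not overlap. The log2 fold change was −1.07 ± 0.24 (SE, edgeR adjusted p = 0.00433). Dnajb9, the gene of the BiP cofactor ERdj4 and a target of XBP1, had 54.9, 46.5 and 44.9 CPM in Tg+ cardiomyocytes and 38.7, 33.9 and 37.3 CPM in WT cardiomyocytes, against 145, 144 and 159 CPM in Tg+ fibroblasts and 116, 142 and 135 CPM in WT fibroblasts. Its log2 fold change was −1.72 ± 0.17 (SE, edgeR adjusted p = 2.09e-05), the largest of the chaperone group in size and the smallest in scatter between mice. Calr, the gene of the lectin chaperone calreticulin, ranged from 258 to 601 CPM (median 435) over the 6 cardiomyocyte columns, against 578 to 719.8 CPM (median 682) over the 6 fibroblast columns, with a log2 fold change of −0.71 ± 0.20 (adjusted p = 0.0157). The call of Calr was lost without WT3 (−0.66, adjusted p = 0.0561), without Tg3 and WT3 together (−0.44, adjusted p = 0.0760) and by library size alone (−0.31, adjusted p = 0.304).

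The other 10 chaperones and foldases were not called, and 6 of them had values above 0. Hsp90b1, the gene of GRP94, had 599.7, 507 and 1549 CPM in Tg+ cardiomyocytes and 894, 387 and 997 CPM in WT cardiomyocytes, against 543, 377 and 479 CPM in Tg+ fibroblasts and 531, 501 and 476 CPM in WT fibroblasts. Its cardiomyocyte columns ran from within the fibroblast range to well above it, with a log2 fold change of 0.62 ± 0.27 (SE, edgeR adjusted p = 0.0805). Sdf2l1, the gene of a partner of BiP, had a log2 fold change of 0.64 ± 0.26 (adjusted p = 0.0657). Dnajb11, the gene of the BiP cofactor ERdj3, had 0.53 ± 0.24 (adjusted p = 0.0939). Pdia3, a disulfide isomerase that works with calreticulin and calnexin, had 0.41 ± 0.19 (adjusted p = 0.104), and Canx, the gene of calnexin, had 0.15 ± 0.19 (adjusted p = 0.559). Whether Hsp90b1 and Sdf2l1 were called turned on the tool and on 1 mouse. DESeq2 over all 6 mice called both higher in cardiomyocytes, Hsp90b1 at 0.61 (adjusted p = 0.0400) and Sdf2l1 at 0.64 (adjusted p = 0.0430), and limma voom called Sdf2l1 (0.64, adjusted p = 0.0471). By edgeR, Sdf2l1 was higher in cardiomyocytes without Tg1 (0.79, adjusted p = 0.0499) and without WT1 (0.81, adjusted p = 0.0346), and Hsp90b1 without WT2 (0.82, adjusted p = 0.0360).

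Pdia4 and Pdia6, further disulfide isomerases, varied widely between cardiomyocyte columns. Pdia4 had 145, 83.0 and 35.7 CPM in Tg+ cardiomyocytes and 221, 89.9 and 56.3 CPM in WT cardiomyocytes, against 86.6, 56.4 and 78.8 CPM in Tg+ fibroblasts and 89.4, 77.6 and 76.4 CPM in WT fibroblasts. Its cardiomyocyte levels spanned a range of 6.19 times, its fibroblast levels one of 1.59 times, and the log2 fold change was 0.23 ± 0.29 (SE, edgeR adjusted p = 0.546). Pdia6 ranged from 102 to 386 CPM (median 171) over the 6 cardiomyocyte columns, against 180.1 to 230.2 CPM (median 210.0) over the 6 fibroblast columns, with a log2 fold change of −0.21 ± 0.25 (adjusted p = 0.508). In both genes WT1 was the highest and Tg3 the lowest cardiomyocyte column. The log2 fold changes of Manf, which encodes a secreted ER protein, Creld2, an ER stress protein, and Dnajc3, which encodes the co-chaperone p58IPK, were −0.47 ± 0.22, −0.42 ± 0.22 and −0.37 ± 0.17 (adjusted p = 0.108, 0.136 and 0.107).

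Of the 4 ER degradation genes, Herpud1 was lower in cardiomyocytes. Its product is an ER membrane protein that organises the degradation complex. Herpud1 had 139, 106 and 73.6 CPM in Tg+ cardiomyocytes and 98.8, 98.8 and 95.1 CPM in WT cardiomyocytes, against 239.9, 306 and 221 CPM in Tg+ fibroblasts and 199.99, 289.8 and 273 CPM in WT fibroblasts. The groups did not overlap, and the log2 fold change was −1.33 ± 0.19 (SE, edgeR adjusted p = 0.000252). Syvn1, the gene of the ubiquitin ligase HRD1, and Sel1l, that of its partner, had 0.14 ± 0.26 and −0.17 ± 0.18 (adjusted p = 0.698 and 0.454). Edem1, whose product hands misfolded glycoproteins to degradation, had 45.3, 48.6 and 239 CPM in Tg+ cardiomyocytes and 45.8, 21.4 and 111 CPM in WT cardiomyocytes, against 86.6, 136 and 65.3 CPM in Tg+ fibroblasts and 127, 98.4 and 130.3 CPM in WT fibroblasts. It was not called over 6 mice (−0.80 ± 0.45, adjusted p = 0.172), and it was lower in cardiomyocytes without Tg3 (−1.19, adjusted p = 0.00287).

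Among the enzymes, Mthfd2, a mitochondrial enzyme of the folate cycle, had 7.85, 11.3 and 16.9 CPM in Tg+ cardiomyocytes and 13.0, 7.95 and 9.48 CPM in WT cardiomyocytes, against 44.5, 74.4 and 43.3 CPM in Tg+ fibroblasts and 37.7, 68.6 and 57.8 CPM in WT fibroblasts. No columns overlapped, and the log2 fold change from the estimated counts was −2.30 ± 0.27 (SE, edgeR adjusted p = 7.20e-05). Asns, which makes asparagine, ranged from 9.57 to 55.9 CPM (median 15.6) over the 6 cardiomyocyte columns, against 23.2 to 57.0 CPM (median 45.2) over the 6 fibroblast columns, with a log2 fold change of −1.12 ± 0.33 (adjusted p = 0.0182). Psat1, an enzyme of serine synthesis, ranged from 3.26 to 15.6 CPM (median 11.1) over the 6 cardiomyocyte columns, against 14.5 to 27.1 CPM (median 18.8) over the 6 fibroblast columns, with −0.96 ± 0.32 (adjusted p = 0.0298). Without 1 mouse the call of Asns was lost 3 times (Tg2 −0.89, WT2 −0.91, WT3 −1.05) and that of Psat1 3 times (Tg2 −0.90, WT1 −0.99, WT3 −0.67). By library size alone neither was called, with Asns at −0.73 (adjusted p = 0.0594) and Psat1 at −0.56 (adjusted p = 0.180). Phgdh, which starts serine synthesis, and Shmt2, which moves a one-carbon unit from serine, had −0.63 ± 0.33 and 0.58 ± 0.26 (adjusted p = 0.144 and 0.0953). Without WT2, Shmt2 was higher in cardiomyocytes (0.75, adjusted p = 0.0473).

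The value of Mthfd2 depended on which deposited table was read. In the authors' normalized signal it had 15.7, 71.7 and 151 in Tg+ cardiomyocytes and 131, 24.1 and 77.9 in WT cardiomyocytes, against 47.3, 75.9 and 52.2 in Tg+ fibroblasts and 40.4, 70.1 and 64.2 in WT fibroblasts. There the cell types overlapped, and the log2 fold change was 0.06 (limma on log2(value + 1), adjusted p = 0.930). The factor by which the authors' signal divides the estimated count differed between the cell types by −2.46 on the log2 scale for Mthfd2, by −0.99 for Asns and by −0.68 for Atf4. Mthfd2 was the only one of 34 members with a factor that moved by more than 1, as 3.06% of 10523 genes did. Asns was at −0.25 in that table (adjusted p = 0.675) and Atf4 at −1.25 (adjusted p = 0.00780). In all, 15 of the 35 genes were lower and none higher by that table, where 24.5% of all genes were lower and 17.4% higher.

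**Figure D3:**
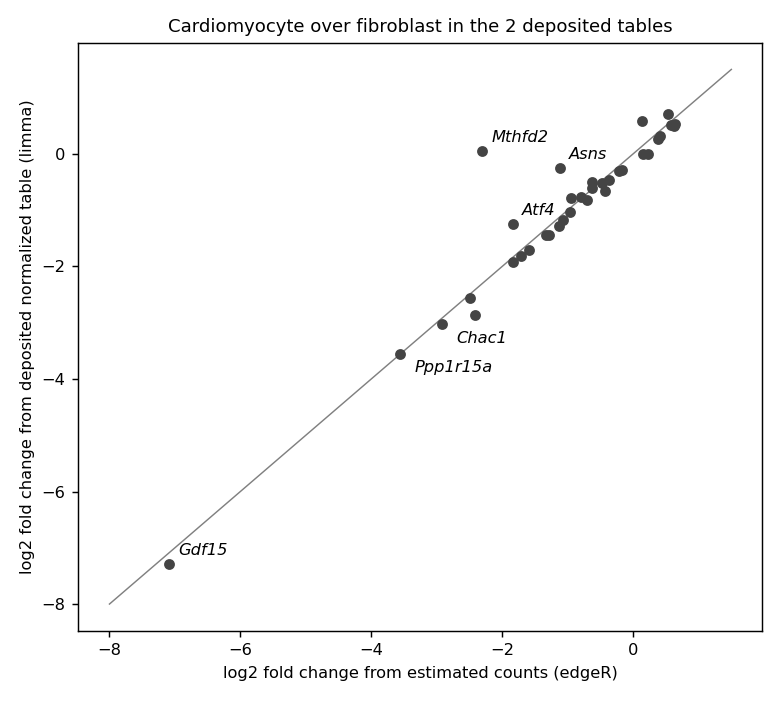
Log2 fold change of each of the 35 genes, cardiomyocyte over fibroblast, from the estimated counts (horizontal axis, edgeR) and from the deposited normalized table (vertical axis, limma on log2(value + 1)), with the line of equal values. Mthfd2 lies farthest off the line, at −2.30 by counts and 0.06 by the normalized table.

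The genes with a C/EBP-ATF type match in the printed window were lower in cardiomyocytes in 5 of 5 cases (median log2 fold change −1.33), those with the first ER stress element in 2 of 8 (median −0.29), and those with its second form in 1 of 2 (median −0.40), where 24.7% of all genes were lower. Of all 35 genes, 19 were lower. The 7 ATF4 and CHOP targets and stress signals were lower with the C/EBP-ATF motif (Trib3, Chac1 and Nupr1) and without it (Ddit4, Gdf15, Sesn2 and Ppp1r15a). The share lower among all genes that hold each motif was not counted. These are counts over few genes, several of which share a role, and were not tested.

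The wider pathway was read from 71 further genes, of which 67 were tested. In cardiomyocytes 10 were higher and 21 lower, with a median log2 fold change of −0.05. Of all genes tested, 20.4% were higher and 24.7% lower, with a median of −0.02. The counts by list below are over few genes and were not tested against these shares. Of 30 tested kinases, factors and targets of the integrated stress response 15 were lower and 3 higher, of 20 ER folding and translocation genes 3 were lower and 3 higher, of 11 ER degradation genes 2 were lower and 2 higher, and of 6 genes of the mitochondrial unfolded protein response 1 was lower and 2 were higher. The 4 with the lowest p were all lower. Atf3, a partner of ATF4 and CHOP that is also an immediate early gene, had 37.9, 30.3 and 7.36 CPM in Tg+ cardiomyocytes and 77.8, 28.7 and 11.9 CPM in WT cardiomyocytes, against 856, 799 and 914 CPM in Tg+ fibroblasts and 1233, 781 and 755 CPM in WT fibroblasts, with a log2 fold change of −5.07 ± 0.40 (SE, edgeR adjusted p = 4.97e-06). Slc7a11, the gene of the cystine transporter, and Slc3a2, that of its heavy chain, had −5.33 ± 0.44 and −3.08 ± 0.26 (adjusted p = 7.20e-06 and 7.62e-06), and Slc3a2 was at −1.99 in the deposited normalized table. Nars, an asparaginyl-tRNA synthetase gene, had −1.69 ± 0.19 (adjusted p = 5.23e-05).

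Cardiomyocyte columns differed more among themselves than fibroblast columns. The median coefficient of variation of the 35 genes over 6 mice was 39.3% in cardiomyocytes, where that of 10213 genes was 33.4%, and 15.0% in fibroblasts, where it was 18.8%. Edem1 varied most in cardiomyocytes (95.1%) and Eif2ak3 least (10.4%), and in fibroblasts Ddit4 varied most (37.9%) and Dnajc3 least (6.06%). The median absolute difference between rep1 and rep2 of a mouse's cardiomyocytes, over the 35 genes, was 0.202 on the log2 scale.

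Mouse Tg3 was an extreme cardiomyocyte column for 25 of the 35 genes, the highest for 14 and the lowest for 11, where it was the highest for 30.3% and the lowest for 34.3% of all genes. It was highest for Edem1 at 239 CPM, against 21.4 to 111 CPM in the other 5, for Sesn2 at 82.0 CPM against 9.52 to 33.5, and for Asns at 55.9 CPM against 9.57 to 20.1. It was also highest for Hsp90b1 and Dnajb11. It was lowest for Gdf15 at 0.736 CPM against 3.56 to 8.20, for Ern1 at 7.73 CPM against 17.8 to 45.3, and for Ppp1r15a, Nupr1, Calr, Pdia4 and Pdia6. Of the ATF4 and CHOP targets and the enzymes, Tg3 was highest for Ddit4, Sesn2, Asns, Shmt2 and Mthfd2. It was lowest for Gdf15, Ppp1r15a, Nupr1 and Phgdh, and at neither end for Trib3, Chac1 and Psat1. In this column Gdf15, Phgdh and Nupr1 rested on 2, 7 and 15 counts. The cell type markers also stood apart in this column, with mesothelial markers at a sum of 34.95 CPM against 344 to 941 in the other 5, erythroid markers at 71.7 against 1083 to 7822, macrophage and myeloid markers at 1228 against 2714 to 4298, and smooth muscle and pericyte markers at 4757 against 880.2 to 4051. Their part in the levels of the stress genes was not tested. WT2 was the lowest cardiomyocyte column for 12 genes, among them Atf4, Xbp1, Hspa5, Hsp90b1 and Edem1, and the highest for 2. Over all genes it was the lowest for 17.8% and the highest for 14.3%.

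In fibroblasts, Tg2 and WT1 were the columns most often at an extreme for the 35 genes. Over all genes Tg2 was the highest for 16.2% and the lowest for 12.6%, WT1 for 28.0% and 20.2%, and Tg3, the column most often at an extreme over all genes, for 23.5% and 37.01%. Of the 35, WT1 was the lowest of the 6 for 11 genes, among them Atf4, Ddit3, Trib3, Chac1, Sesn2, Ddit4, Asns and Mthfd2, and the highest for 7, among them Hspa5, Pdia4, Sdf2l1 and Ern1. Tg2 was the highest for 11 genes, among them Trib3, Chac1, Gdf15, Sesn2, Psat1 and Mthfd2, and the lowest for 9 ER chaperones and foldases, among them Hsp90b1, Pdia3, Pdia4 and Calr. WT1 was also the fibroblast column with the largest mitochondrial share, at 74.2%, and Tg2 the one with the smallest, at 16.7%, and the part of that share in these levels was not tested.

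**Figure D4:**
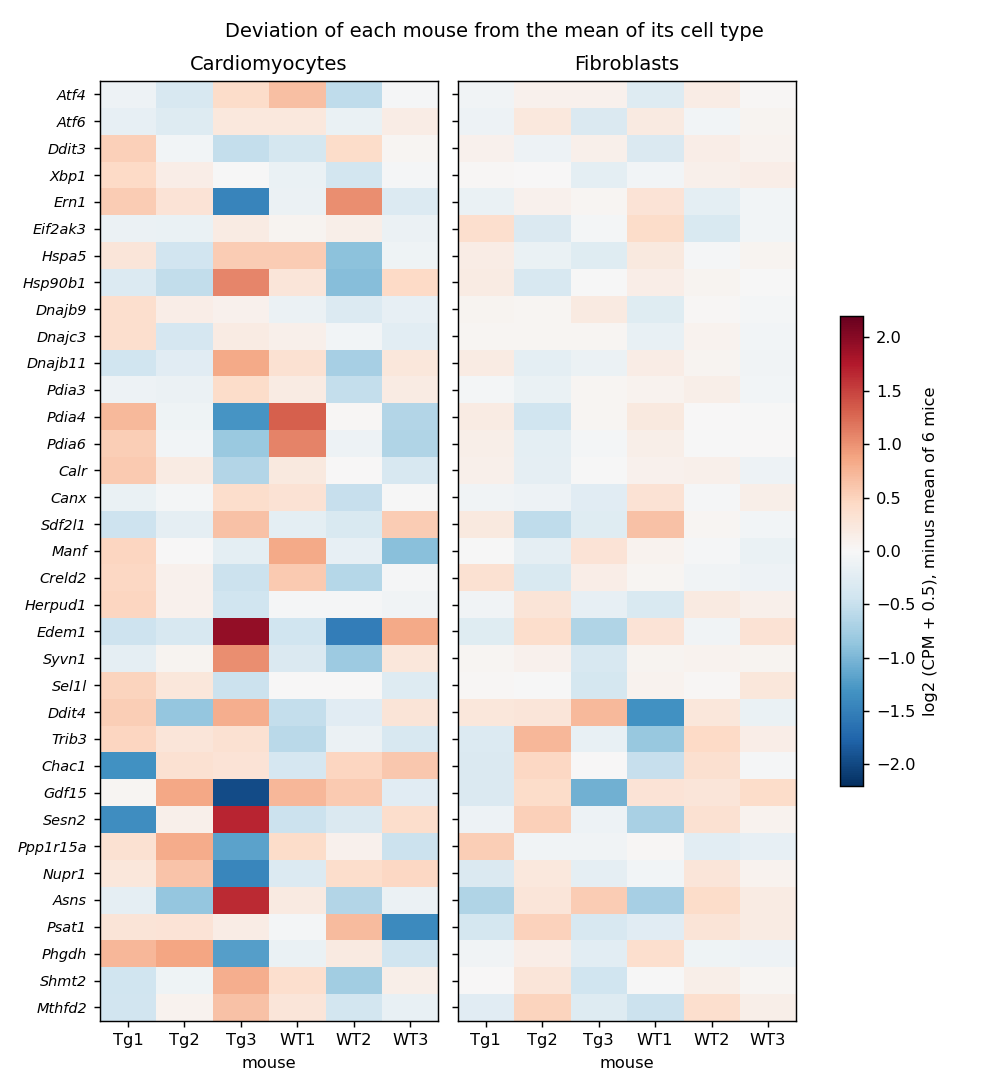
Deviation of each mouse from the mean of the 6 mice of its cell type, in log2 (CPM + 0.5), for the 35 genes in role order, with red above and blue below that mean. In cardiomyocytes Tg3 holds the strongest colours in both directions, with Edem1, Sesn2 and Asns high and Gdf15, Ern1 and Nupr1 low, and the fibroblast columns are paler.

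The study's main contrast, Bag3-P209L Tg+ against Bag3-WT, gave no called stress gene in either cell type. In cardiomyocytes 0 of the 35 genes and 0% of 12114 genes passed edgeR's quasi-likelihood test (3 mice against 3). None of the 35 had an unadjusted p under 0.05, while 87 of all genes did, and DESeq2 called 3 genes, none of them among the 35. The log2 fold change, Tg+ over WT, was above 0 for 25 of the 35 genes and for 6228 of the 12114, with medians of 0.12 and 0.01. The standard errors of the 35 genes ran from 0.28 to 0.84. The cardiomyocyte markers summed to 2990 to 6124 CPM in Tg+ cardiomyocytes and 6628 to 7625 CPM in WT cardiomyocytes, and their part in these values was not tested.

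The 4 genes with the lowest p in cardiomyocytes were Trib3, Syvn1, Dnajb9 and Xbp1. Trib3 had 22.9, 19.9 and 21.0 CPM in Tg+ cardiomyocytes and 10.7, 15.0 and 12.7 CPM in WT cardiomyocytes. Its log2 fold change was 0.72 ± 0.36 (SE, edgeR adjusted p = 1.00). The groups did not overlap, but the difference did not pass the test, and the value was 1.47 from rep1 libraries alone and 0.26 with the replicate block over the 12 libraries. The rep1 value of Trib3 rested on 36, 40 and 9 counts in Tg+ and 5, 16 and 1 in WT cardiomyocytes. Dnajb9 had 54.9, 46.5 and 44.9 CPM in Tg+ cardiomyocytes and 38.7, 33.9 and 37.3 CPM in WT cardiomyocytes, with 0.40 ± 0.28, and Xbp1 had 203, 166 and 149 CPM in Tg+ and 137, 114 and 148 CPM in WT cardiomyocytes, with 0.37 ± 0.29 (edgeR adjusted p = 1.00 for each). Syvn1 had 49.8, 59.8 and 116 CPM in Tg+ cardiomyocytes and 45.4, 32.4 and 67.5 CPM in WT cardiomyocytes, overlapping, with 0.63 ± 0.42 (edgeR adjusted p = 1.00). Without Tg3, the highest column, the value of Syvn1 was 0.16, and without WT3 it was 0.92. That of Xbp1 was 0.24 without Tg1, 0.24 from rep1 libraries and 0.46 without Tg3. That of Dnajb9 was 0.26 in the deposited normalized table and 0.48 from rep2 libraries.

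Trib3, Dnajb9 and Xbp1 were the genes whose Tg+ columns all lay above the WT columns, 3 of 35, where 2.38% of all genes did so. None of the 35 had all Tg+ columns below, where 2.63% of all genes did. Atf4, the factor above Trib3, had 162, 138 and 232 CPM in Tg+ cardiomyocytes and 278, 119 and 173 CPM in WT cardiomyocytes (−0.10 ± 0.40), and Ddit3 had a log2 fold change of −0.02 ± 0.42. Among the 65 further pathway genes tested, none was called, and the lowest p were those of Fkbp14, an ER prolyl isomerase gene (0.76 ± 0.40), and Eif2ak2, the gene of the eIF2 kinase PKR (−0.67 ± 0.43), each with an edgeR adjusted p of 1.00. Fkbp14 was at 0.43 in the deposited normalized table and 1.02 with the replicate block, and turned round in rep1 libraries. Eif2ak2 was at −1.07 without Tg1 and −0.38 without Tg3.

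In fibroblasts 0 of the 35 genes and 0% of 13858 genes were called, with 699 genes and none of the 35 at an unadjusted p under 0.05, and DESeq2 called 6 genes, none of the 35. The median log2 fold change was −0.02 over the 35 genes and 0.02 over all genes, with standard errors of 0.16 to 0.40. The 4 genes with the lowest p were Ddit4, Dnajb9, Ppp1r15a and Gdf15. Ddit4 had 630.0, 637 and 865 CPM in Tg+ fibroblasts and 209.04, 624.7 and 478 CPM in WT fibroblasts. Its log2 fold change of 0.75 ± 0.40 (SE, edgeR adjusted p = 0.782) was 0.41 without WT1, the lowest column. It was 1.11 without WT2 and 1.09 with the letter of the animal code as a covariate. Dnajb9 had 145, 144 and 159 CPM in Tg+ fibroblasts and 116, 142 and 135 CPM in WT fibroblasts, with 0.25 ± 0.17 (edgeR adjusted p = 0.785), 0.15 without WT1 and 0.33 without WT2.

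Ppp1r15a had 1122, 724 and 729 CPM in Tg+ fibroblasts and 785, 650.1 and 673 CPM in WT fibroblasts, with a log2 fold change of 0.35 ± 0.25 (edgeR adjusted p = 0.786). The value was 0.13 without Tg1, the highest column, and 0.47 without Tg2. Gdf15 had 508, 845 and 304 CPM in Tg+ fibroblasts and 785, 763 and 842 CPM in WT fibroblasts, with −0.48 ± 0.34 (edgeR adjusted p = 0.789). For Gdf15, Tg1 and Tg3 lay below the 3 WT columns and Tg2 just above them, and the value was −0.18 without Tg3 and −0.90 without Tg2. Ddit4 and Dnajb9 had all Tg+ columns above the WT columns, 2 of 35, where 4.25% of all genes did so, and Canx and Sel1l had all below, 2 of 35, where 8.76% did. The macrophage and myeloid markers summed to 5991 to 14718 CPM in Tg+ fibroblasts and 16080 to 20568 CPM in WT fibroblasts. Immediate early genes ran the other way, at sums of 10045 to 12434 CPM in Tg+ fibroblasts and 7703 to 9253 CPM in WT fibroblasts, as did endothelial markers, at 5138 to 6824 CPM in Tg+ fibroblasts and 3510.2 to 4688 CPM in WT fibroblasts. The part of these 3 lists in the genotype values was not tested. Of the 67 further pathway genes none was called, with the lowest p for Stc2, which encodes a secreted glycoprotein (0.87 ± 0.40), and Edem2, an ER mannosidase gene (−0.37 ± 0.21), each at an edgeR adjusted p of 0.782. Without Tg3, Stc2 was at 0.56 and Edem2 at −0.22, and without Tg1 Edem2 was at −0.57. With the letter of the animal code as a covariate, Stc2 was at 0.49, and without Tg2 it was at 1.17.

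Whether the genotype difference itself differed between the cell types was tested as an interaction over all 12 columns. None of the 35 genes and 0% of 14223 genes was called (138 genes and none of the 35 at an unadjusted p under 0.05, and 1 gene, not of the 35, by DESeq2). The 3 lowest p belonged to Syvn1, Xbp1 and Trib3, whose genotype effects in cardiomyocytes minus those in fibroblasts were 0.73 ± 0.51, 0.51 ± 0.37 and 0.60 ± 0.47 on the log2 scale (SE, edgeR adjusted p = 1.00 for each). The value of Syvn1 was 0.15 without Tg3, 0.48 without WT2 and 1.05 without Tg1. That of Trib3 was 0.33 without Tg1, 0.97 without Tg2, 0.40 without Tg3 and 1.40 from rep1 libraries, with the low rep1 cardiomyocyte counts given above. In Xbp1 the cardiomyocyte minus fibroblast difference averaged −0.38 in the Tg+ mice and −0.88 in the WT mice.

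**Figure D5:**
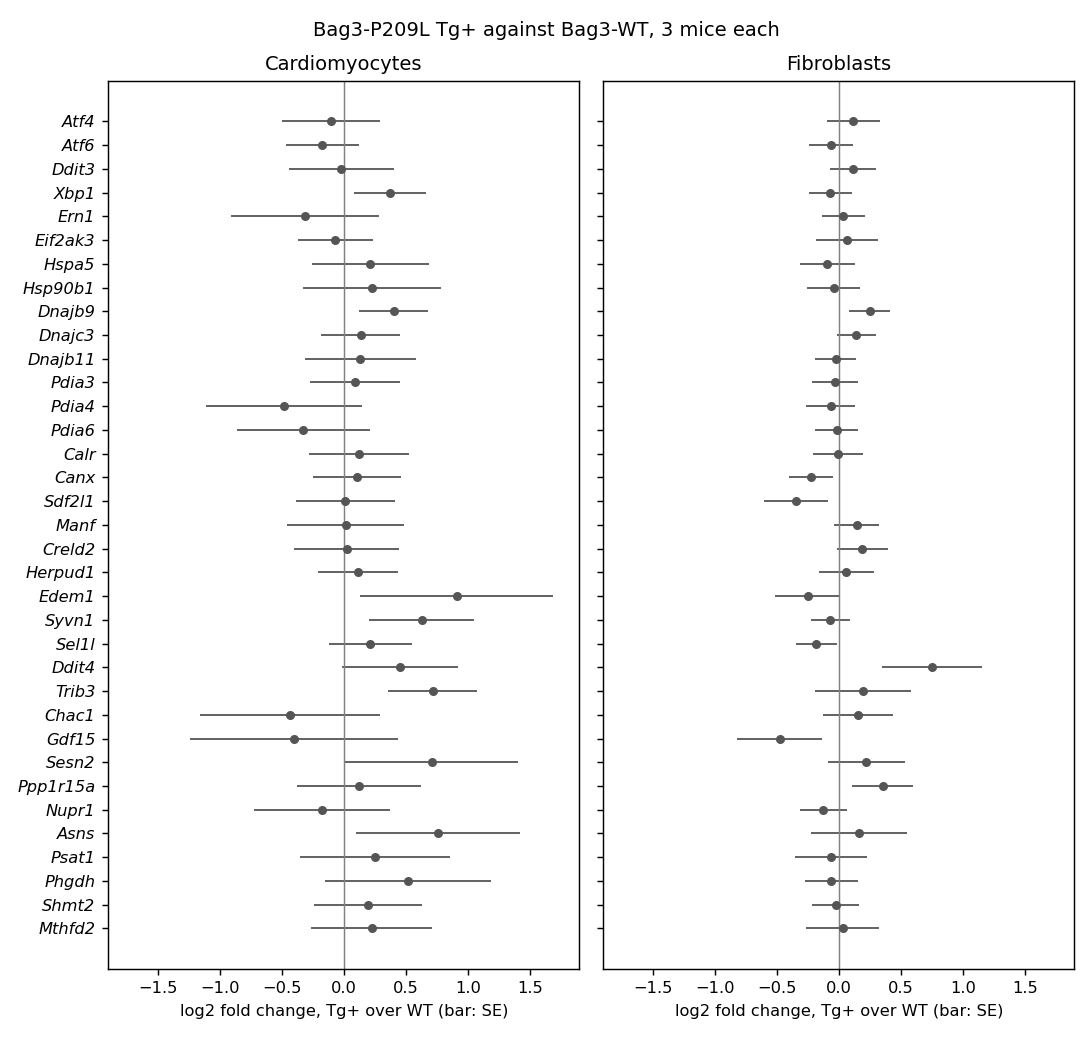
Log2 fold change, Bag3-P209L Tg+ over Bag3-WT, for the 35 genes in role order in cardiomyocytes (left) and fibroblasts (right), 3 mice against 3, with bars of 1 SE. No gene passed the test in either cell type, and the bars are wider in cardiomyocytes (SE 0.28 to 0.84) than in fibroblasts (SE 0.16 to 0.40).

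The cell type difference was present in each genotype taken alone. In the 3 Tg+ mice 9 of the 35 genes were lower in cardiomyocytes and none higher, where 9.23% of all genes were lower and 3.12% higher. In the 3 WT mice 16 of the 35 were lower and none higher, where 17.3% of all genes were lower and 12.2% higher, so that fewer calls were made in Tg+ mice over all genes too. Gdf15 had log2 fold changes of −7.11 in Tg+ mice and −7.05 in WT mice, Ppp1r15a of −3.71 and −3.37, and Atf4 of −1.89 and −1.72 in the same order. Hspa5 was called in WT mice (−1.24, edgeR adjusted p = 0.0264) and not in Tg+ mice (−0.85, adjusted p = 0.183), and the interaction for Hspa5 was not called (0.45 ± 0.50, adjusted p = 1.00). Without mice Tg3 and WT3 together, whose cardiomyocyte columns had the lowest median correlations (0.780 and 0.866), 19 genes were lower and 1, Pdia4, was higher in cardiomyocytes (0.76, edgeR adjusted p = 0.0173), where 22.9% of all genes were lower and 21.5% higher.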

How the data were processed

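RNA sequencing of 18 libraries was read from 2 deposited tables. The first held the authors' expected counts (estimated counts), 44.7% of them not whole numbers, and the second a normalized signal, as deposited by the authors. GRCm38.p6, R 3.4.4, DESeq2 1.18.1 and kallisto 0.44.0 appear, without their roles, in the submitters' processing notes. Gene-level summing and strand handling are not stated there. All 19094 genes had names in the tables, and 0 columns were unmapped. Per the labels' protocols, RNA was captured on oligo(dT) beads and cardiomyocyte samples were sequenced a further time.

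For each mouse the rep1 and rep2 counts were added and then rounded, and the mouse was the unit of replication. The 13 mitochondrial genes were left out before scaling. Tests used edgeR 4.0.16 in R 4.3.3 (filterByExpr, TMM, robust glmQLFit, glmQLFTest, two-sided, Benjamini-Hochberg adjusted p under 0.05 over all genes tested), with limma 3.58.1 and DESeq2 1.42.0 as alternatives. Fits were tested on simulated data. The SE of an edgeR value is the size of the log2 fold change divided by the square root of its F statistic. The common biological coefficient of variation was 0.489 in cardiomyocytes, 0.284 in fibroblasts, 0.352 for cell type and 0.383 for the interaction. A count of 3 corresponds to 0.385 to 1.33 CPM in cardiomyocyte and 0.190 to 0.265 CPM in fibroblast columns before TMM scaling, which covers counting error only. Levels are means over mice, and exon lengths came from GENCODE M21 on GRCm38. Cell types were paired within mice because both came from the same animal. Same-numbered cardiomyocyte libraries of opposite genotype had deviations from their group means that correlated at 0.0166 on average (lowest −0.394, highest 0.377, 18 pairs).

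The members, lists and tests were chosen with earlier results of these data known. Every member could be named for cell type; for genotype the 4 members, and for the interaction the 3, with the lowest p, and of other pathway genes the 4 (cell type) or 2 (genotype) with the lowest p. Members named beside these in the genotype comparisons were chosen after their values were seen.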

Additional observations from a re-analysis of the deposited data

How the results depend on the processing

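No stress gene was called for genotype or for the interaction (0 members) with other scalings, no filter, DESeq2, limma voom, the deposited normalized table or each mouse left out. The same held from rep1 or rep2 libraries alone, run for cardiomyocytes and the interaction, and with the letter of the animal code as a covariate, run for the genotype comparison in each cell type. With that covariate in fibroblasts, 3 of the 35 and 881 of 13858 genes had an unadjusted edgeR p under 0.05. Over all genes, DESeq2 called 3 genes in cardiomyocytes, 6 in fibroblasts and 1 for the interaction, where edgeR called 0. The replicate block fit over the 12 cardiomyocyte libraries (repeat number as a term, mouse as random effect, correlation of repeats 0.743) called 0 genes and 0 members. Without the mouse as a block (no replicate block) the cell type fit called 6328 genes and 20 members, 18 lower and 2 higher (Sdf2l1 0.67 and Shmt2 0.65), and no longer called Asns (−1.002, adjusted p = 0.0541). Leaving out each mouse gave 4806 to 6693 genes and 15 to 20 members. Tg+ mice alone gave 1656 genes and 9 members, and WT mice alone 3851 genes and 16 members.

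Direction turned round for 1 called member and for genes that were not called. By library size alone Dnajc3 was at 0.028, Pdia6 at 0.19 and Sel1l at 0.23, and in the deposited normalized table Pdia4 was at −0.011, Canx at −0.011 and Mthfd2, a called member, at 0.058. Syvn1 was at −0.074 without Tg3 (range −0.074 to 0.31 over the mice left out). Without Tg3 and WT3, an alternative chosen after seeing the data, as were the single-genotype fits, Pdia6 was at 0.20, Syvn1 at −0.19 and Sel1l at 0.040. In Tg+ mice alone Sel1l was at 0.035, and in WT mice alone Canx was at −0.00980 and Syvn1 at −0.17. For genotype in cardiomyocytes, Fkbp14 was at −0.046 from rep1 libraries. The cause of these shifts was not tested. The factor given for Mthfd2 restates the difference between the estimated counts and the normalized signal, and its origin was not tested. Depth limits the low cardiomyocyte values most, since Gdf15, Chac1, Psat1, Phgdh and Mthfd2 had 2 to 111 counts there. Nupr1, Asns and Trib3 had 15 to 219.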
